A study of Mus musculus with 4 samples.

Results

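The genes described here convert steroid hormones in skin or carry their signal. They were taken as 9 listed symbols: the 5-alpha-reductases Srd5a1, Srd5a2 and Srd5a3, the dehydrogenases Hsd3b6 and Hsd11b1, the sulfatase Sts, the aldo-keto reductase Akr1c18, the glucocorticoid receptor Nr3c1 and its co-chaperone Fkbp5. Of the 9 symbols, 8 were found among the 25571 genes of the table and 7 reached 1 FPKM (a level that corrects fragment numbers for transcript length and depth) in at least 1 library. Srd5a2 did not reach it, and Sts was not analysed here.

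Skin of mice was sequenced in 4 groups with 1 library each: PRP-MNs, PRP, MNs and NC. By the series title, the study concerns hair regrowth with microneedles (MNs, arrays of fine needles that enter the skin) loaded with platelet-rich plasma (PRP, a platelet concentrate that carries growth factors). NC is not explained in the labels and served as the reference. They give no strain, age, sex, dose, time of harvest or number of animals per library. Since each group is a single library, the spread between animals is unknown and p-values could not be given. Every value describes these libraries.

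Skin makes and converts its own steroids. The 5-alpha-reductases turn testosterone into dihydrotestosterone, the stronger androgen, which shrinks susceptible scalp follicles and drives sebaceous glands, and 3-beta-hydroxysteroid dehydrogenases such as Hsd3b6 form the active ring structure of androgens and of progesterone. Akr1c18 encodes 20-alpha-hydroxysteroid dehydrogenase, which inactivates progesterone. Hsd11b1 regenerates active glucocorticoid from its inert keto form inside cells, Nr3c1 encodes the receptor that binds it, and Fkbp5 is a classic glucocorticoid-induced gene whose product lowers the receptor's affinity for hormone.

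Depth, a rough estimate from steps in the low values that only 21.1% to 25.0% of the values used fitted, ran from about 15.9 M fragments (PRP) to 19.3 M (NC). Between 12702 and 13386 genes reached 1 FPKM per library, and mitochondrially encoded genes took 10.9% to 15.5% of the FPKM sum. All 10 epidermal markers were present in every library, with a summed level of 24453 FPKM in NC, 14975 in PRP, 8324 in MNs and 4181 in PRP-MNs. The libraries therefore differed in epidermal RNA, and in bulk skin fewer cells of a type and less RNA per cell cannot be told apart.

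The 5 genes that differed at least 2-fold in some comparison are shown with the 250 bases before their RefSeq start (GRCm38.p6), to show how the promoters of genes with a shared direction compare in their letters. Capitals mark 2 motifs searched on both strands, the half-site TGTTCT bound by glucocorticoid and related steroid receptors and the GC box GGGCGG bound by Sp1-type factors. The sequences are written 5′ to 3′ on the gene's strand, which is the minus strand for all 5. For Hsd11b1 and Fkbp5 the RefSeq start lies inside the longer gene span given with their values, so other annotated starts have other promoters.
Srd5a1, chr13:69611464-69611713: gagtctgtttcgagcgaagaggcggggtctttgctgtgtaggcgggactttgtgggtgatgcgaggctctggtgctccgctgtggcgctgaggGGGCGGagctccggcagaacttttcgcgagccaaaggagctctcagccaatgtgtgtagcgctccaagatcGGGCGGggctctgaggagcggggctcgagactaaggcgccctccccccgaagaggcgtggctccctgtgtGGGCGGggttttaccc
Akr1c18, chr13:4150647-4150896: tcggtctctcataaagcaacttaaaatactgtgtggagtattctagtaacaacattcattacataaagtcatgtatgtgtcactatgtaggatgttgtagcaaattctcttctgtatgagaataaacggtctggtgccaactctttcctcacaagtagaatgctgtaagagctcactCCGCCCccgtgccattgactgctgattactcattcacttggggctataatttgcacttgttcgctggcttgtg
Hsd3b6, chr3:98814444-98814693: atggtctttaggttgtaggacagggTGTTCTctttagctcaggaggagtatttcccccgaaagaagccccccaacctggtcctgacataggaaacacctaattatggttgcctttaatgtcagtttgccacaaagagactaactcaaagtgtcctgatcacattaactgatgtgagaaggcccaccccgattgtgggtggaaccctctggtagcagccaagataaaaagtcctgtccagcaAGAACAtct
Hsd11b1, chr1:193242361-193242610: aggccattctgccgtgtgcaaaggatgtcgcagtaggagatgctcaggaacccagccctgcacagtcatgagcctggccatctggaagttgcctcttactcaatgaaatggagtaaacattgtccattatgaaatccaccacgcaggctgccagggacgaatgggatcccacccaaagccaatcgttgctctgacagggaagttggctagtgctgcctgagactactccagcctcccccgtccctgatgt
Fkbp5, chr17:28486150-28486399: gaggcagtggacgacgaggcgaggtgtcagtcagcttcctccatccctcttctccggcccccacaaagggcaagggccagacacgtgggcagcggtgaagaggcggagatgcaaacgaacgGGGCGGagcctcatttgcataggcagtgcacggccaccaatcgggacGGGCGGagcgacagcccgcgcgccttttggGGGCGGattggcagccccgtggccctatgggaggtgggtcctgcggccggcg

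The 5 promoters differed in composition. CpG dinucleotides stood at 0.80 of the number expected from base content in Srd5a1 and 0.81 in Fkbp5, against a median of 0.37 over the promoters of 32851 annotated starts. Hsd3b6 had 0.14, Hsd11b1 0.33 and Akr1c18 0.46. Srd5a1 and Fkbp5 held 3 GC boxes each, Akr1c18 held 1, and none was found in the windows of Hsd3b6 and Hsd11b1, while 32.7% of all promoters held at least 1. Of the 5, Hsd3b6 was the only one with the half-site, which began 225 and 9 bases before its start and was present in 16.1% of all promoters. The full palindrome, the half-site facing its inverted copy across 3 bases, was in none of the 5 windows and in 0.00913% of all promoters. The TATA motif TATAAA was in none of the 5 and in 12.4% of all promoters. A match is a run of letters, not a measured site, and these windows leave out distal elements.

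Srd5a1 (ENSMUSG00000021594; GRCm38 chromosome 13, 69573449 to 69611442), the type 1 reductase usually dominant in skin, was at 17.9 FPKM in NC, 11.1 in PRP, 9.79 in MNs and 3.34 in PRP-MNs. NC was the highest library, PRP and MNs lay close together below it, and PRP-MNs was the lowest. The level in PRP-MNs was 5.36-fold lower than in NC, a difference of −2.12 in log2(FPKM + 1), the scale of all differences given here, which understates those of low genes. PRP differed from NC by −0.64 and MNs by −0.81, less than 2-fold. PRP-MNs was also lower than each single treatment, by −1.48 against PRP and −1.32 against MNs. Srd5a1 shares 476 of its 2909 exonic bases with the predicted gene Gm17108 on the same strand. Gm17108 is not among the genes of the table, so how fragments of the shared bases were treated is unknown.

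Srd5a2, the type 2 reductase known from prostate and human scalp follicles, was listed at 0 in all 4 libraries. For its single transcript of 1605 bases, 3 fragments correspond to 0.0967 (NC) to 0.118 (PRP) FPKM, a floor that covers counting error only. Srd5a3 (ENSMUSG00000029233; chromosome 5, 76140271 to 76155504), a polyprenol reductase of the same family needed for protein N-glycosylation, was at 13.6 FPKM in NC, 13.8 in PRP, 19.8 in MNs and 19.7 in PRP-MNs. The 2 libraries with microneedles were thus close to each other and above the 2 without, but no difference reached 2-fold, the largest being 0.51 in MNs against NC. The ratio of Srd5a3 to Srd5a1 FPKM was 0.764 in NC, 1.24 in PRP, 2.02 in MNs and 5.90 in PRP-MNs, so which of the pair had the higher level depended on the library.

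Akr1c18 (ENSMUSG00000021214; chromosome 13, 4132615 to 4150654) was at 12.7 FPKM in NC, 5.58 in PRP, 5.99 in MNs and 2.88 in PRP-MNs. As for Srd5a1, NC was highest, PRP and MNs were close, and PRP-MNs was lowest. The difference from NC was −1.82 in PRP-MNs, −1.06 in PRP and −0.97 in MNs. The PRP and MNs values lie on either side of the 2-fold line and their order is not resolved: in PRP the call was lost at −0.99 after scaling without mitochondrial genes, and in MNs it was gained at −1.07 with a pseudocount of 0.1 and at −1.13 after centring. Of the other genes of this family in the table, Akr1c14, which reduces dihydrotestosterone to a weak androgen, stood at 2.09 FPKM in NC but 0.429 in PRP-MNs (−1.11). Akr1c13 was higher instead, at 1.10 FPKM in NC, 3.19 in PRP-MNs and 4.54 in MNs. Akr1c6 and Akr1c20 were listed at 0 in every library, and Akr1c12, Akr1c19, Akr1c21 and Akr1cl stayed below 1 FPKM. These genes are close relatives, so a fragment that fits several of them could have been assigned to any.

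Cyp17a1, the lyase that forms androgen precursors, was also highest in NC and lowest in PRP-MNs. It was at 10.6 FPKM in NC, 4.54 in PRP, 5.07 in MNs and 0.885 in PRP-MNs, a difference of −2.62 in PRP-MNs and −1.07 in PRP. Epidermal markers were lower in the same libraries: in PRP-MNs 9 of 10 passed 2-fold (median −3.38), in PRP 2 of 10 (−0.66) and in MNs 6 of 10 (−2.01), beside 11.5%, 1.46% and 7.12% of all genes tested. Loricrin (Lor), a cornified envelope protein, was at 1058 FPKM in NC, 643 in PRP, 113 in MNs and 61.1 in PRP-MNs. The epidermal markers were not uniform. In MNs against NC, Krt5 (−0.55), Krt14 (−0.25), Trp63 (−0.47) and Col17a1 (−0.72) stayed under 2-fold, and the others passed it. In PRP-MNs against NC the same genes differed by −1.77, −0.95, −1.53 and −1.67. T cell markers, of a cell type known to make Akr1c18, were mixed: 2 of 6 were at least 2-fold lower than in NC in PRP-MNs (median −0.86), none of 6 in PRP (−0.57), and 2 of 7 in MNs (−0.72), where 1 was higher. Cd3e was at 5.33 FPKM in NC, 2.54 in PRP, 1.29 in MNs and 1.44 in PRP-MNs. Cd3g, Cd3d and Cd5 were likewise highest in NC. Cd4 was at 0.227 in NC and 1.70 in MNs, and Lck at 1.44 in NC and 2.13 in PRP-MNs. The summed level of the list was 82.9 FPKM in NC, 71.6 in PRP, 94.9 in MNs and 52.1 in PRP-MNs. Most of that sum was Thy1, which is also in the fibroblast list. Thy1 was at 54.8 FPKM in NC, 54.7 in PRP, 86.2 in MNs and 42.3 in PRP-MNs. The part of these cell types in the lower Srd5a1 and Akr1c18 levels was not tested.

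**Figure D1:**
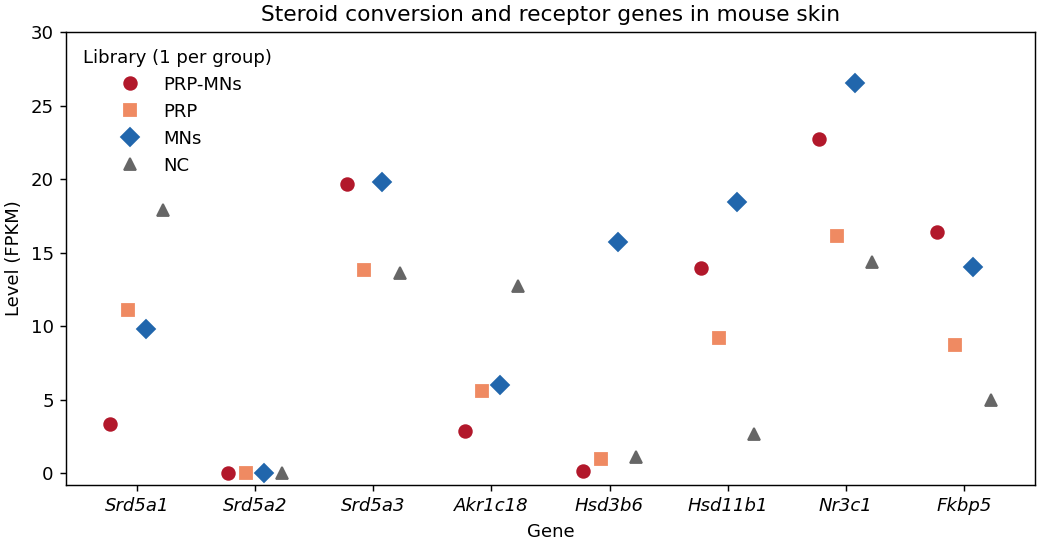
Level in FPKM (linear axis) of the 8 genes found in the table, with 1 point per library and no error bars because each group is 1 library. Srd5a1 and Akr1c18 are highest in NC and lowest in PRP-MNs, Hsd3b6 is high in MNs at 15.7 FPKM, and Srd5a2 is at 0 throughout.

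Hsd3b6 (ENSMUSG00000027869; chromosome 3, 98805504 to 98814443) was at 1.10 FPKM in NC, 0.944 in PRP, 15.7 in MNs and 0.161 in PRP-MNs. A single library, MNs, stood apart, and the other 3 lay near or below 1 FPKM. The level in MNs was 14.3-fold that in NC (3.0 on the log2 scale) and 97.7-fold that in PRP-MNs, where PRP-MNs minus MNs was −3.85 and −5.92 with a pseudocount of 0.1. The value in PRP-MNs rests on about 5 fragments of the longest transcript, and those in NC and PRP on about 38 and 27, so its difference between PRP-MNs and NC was −0.85 with a pseudocount of 1 and −2.20 with 0.1. PRP-MNs and PRP were both below 1 FPKM and were not compared. Of the relatives in the same gene cluster, Hsd3b2, Hsd3b4 and Hsd3b5 were listed at 0 in every library, Hsd3b3 reached 0.490 FPKM at most and Hsd3b1 0.167 FPKM, both in PRP. Hsd3b7, which acts on bile acid precursors, was at 8.11 FPKM in NC, 15.5 in PRP, 18.3 in MNs and 17.1 in PRP-MNs.

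Sebaceous gland markers were high in the same library as Hsd3b6. Of 18 markers, 17 were tested in MNs against NC. Of these, 15 were at least 2-fold higher and none lower (median 2.47), beside 15.7% and 7.12% of all genes. In PRP-MNs against NC 4 of 16 were higher and 9 lower (median −1.56), beside 17.6% and 11.5%. The summed level of the 18 markers was 3357 FPKM in MNs, 894 in NC, 975 in PRP and 795 in PRP-MNs. No marker was at 0 in all libraries. The wax-forming reductase Far2 was at 249 FPKM in MNs, 22.5 in NC, 21.9 in PRP and 1.23 in PRP-MNs. Elovl3, which lengthens sebum fatty acids, was at 244, 24.3, 25.6 and 1.99 FPKM in the same order. Plin2, which coats lipid droplets in many cell types, departed from this pattern, with 21.7 FPKM in NC but 234 in PRP-MNs. Soat1 (1.39), Pparg (1.45) and Fads2 (1.34) were also at least 2-fold higher in PRP-MNs than in NC. Acsbg1 (−0.45) and Dgat2 (−0.97) were lower in MNs than in NC, by less than 2-fold. The part of gland RNA in the Hsd3b6 level was not tested.

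Hsd11b1 (ENSMUSG00000016194; chromosome 1, 193221634 to 193264075) was at 2.64 FPKM in NC, 9.18 in PRP, 18.4 in MNs and 13.9 in PRP-MNs. All 3 treated libraries were above NC, MNs the most. The level was 5.28-fold that of NC in PRP-MNs (2.04), 3.48-fold in PRP (1.48) and 6.99-fold in MNs (2.42). Between treated libraries the differences were smaller, 0.55 for PRP-MNs against PRP and −0.38 for PRP-MNs against MNs. H6pd, which supplies the cofactor that Hsd11b1 needs to work in the activating direction, was at 3.63 FPKM in NC, 10.9 in PRP, 18.3 in MNs and 25.4 in PRP-MNs. It was therefore also higher than NC in each treated library, by 2.51 in PRP-MNs, 1.37 in PRP and 2.06 in MNs, but its highest library was PRP-MNs, not MNs. Hsd11b2, the enzyme of the inactivating direction, stayed below 0.1 FPKM in all 4 libraries. The Hsd11b1 gene overlaps Lamb3 on the opposite strand, but the annotated exons of the pair share no bases.

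Markers of cell types in which Hsd11b1 is known to be active were read in the same libraries. Fibroblast markers were at least 2-fold higher than in NC for 1 of 10 in PRP-MNs (median −0.10), 5 of 10 in PRP (0.97) and 8 of 10 in MNs (2.48). Adipocyte markers were higher for 3, 4 and 9 of 10, with medians of 0.86, 0.87 and 1.26. Leukocyte and macrophage markers were higher for 10, 9 and 10 of 10, with medians of 3.25, 1.95 and 2.37. Their summed levels were 1033 FPKM in NC and 1094 to 7536 FPKM in the treated libraries for fibroblasts, 517 FPKM and 1084 to 1419 FPKM for adipocytes, and 252 FPKM and 919 to 2373 FPKM for leukocytes. Blood vessel endothelial markers were higher for 7 of 7 in PRP-MNs (median 2.65), 4 of 7 in PRP (1.12) and 7 of 7 in MNs (2.08), with a summed level of 25.2 FPKM in NC and 72.5 to 206 FPKM in the treated libraries. Neutrophil markers were higher for 7 of 7 in PRP-MNs (2.99), 2 of 6 in PRP (0.84) and 3 of 7 in MNs (0.94), with sums of 237 FPKM in NC, 412 in PRP, 190.0 in MNs and 1050 in PRP-MNs. Of all genes, 17.6%, 7.78% and 15.7% were higher in these comparisons. No marker of these 5 lists was at 0 in all libraries, and their part in the Hsd11b1 level was not tested.

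Nr3c1 (ENSMUSG00000024431) was at 14.4 FPKM in NC, 16.1 in PRP, 26.6 in MNs and 22.7 in PRP-MNs. The microneedle libraries were the higher pair, and no difference reached 2-fold: 0.63, 0.16 and 0.84 against NC in PRP-MNs, PRP and MNs. The MNs value was 1.03 after scaling the libraries to the same sum. Fkbp5 (ENSMUSG00000024222; chromosome 17, 28399094 to 28517527) was at 4.94 FPKM in NC, 8.70 in PRP, 14.0 in MNs and 16.4 in PRP-MNs. Like Nr3c1 and Srd5a3, it was higher in both microneedle libraries than in PRP and NC. Its level was 3.32-fold that of NC in PRP-MNs (1.55) and 2.84-fold in MNs (1.34), and 1.76-fold in PRP (0.71).

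**Figure D2:**
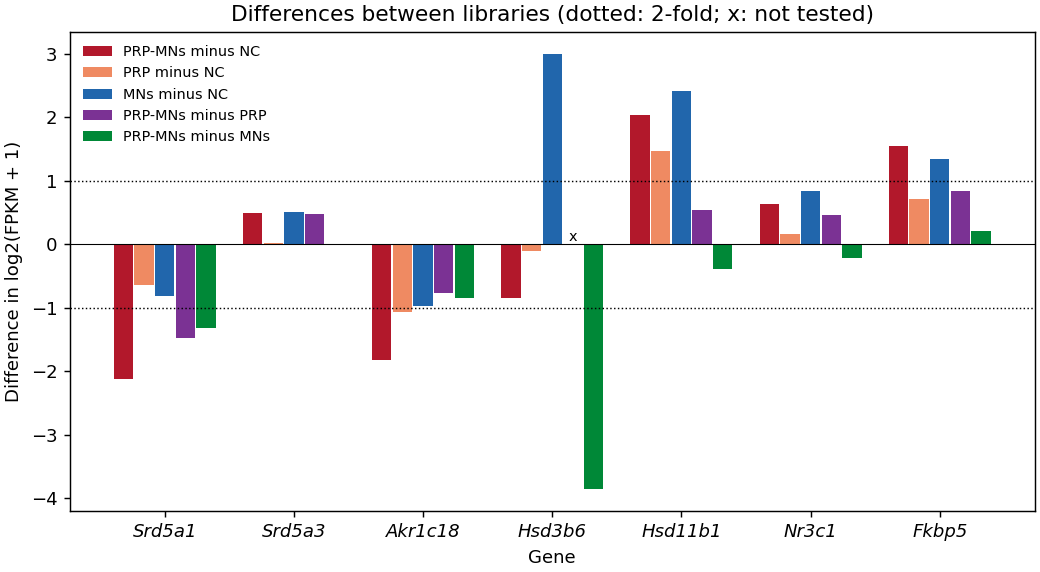
Difference in log2(FPKM + 1) of 7 genes in the 5 comparisons, 1 bar per comparison and no error bars, with dotted lines at 2-fold and a cross where neither library reached 1 FPKM. The bars of Hsd3b6 reach 3.0 in MNs minus NC and −3.85 in PRP-MNs minus MNs, and Srd5a1 is below 0 in all 5.

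Read against all genes, the counts were as follows. In PRP-MNs against NC, 2 of 7 genes were at least 2-fold higher, Hsd11b1 and Fkbp5, beside 17.6% of all genes tested, and 2 were lower, Srd5a1 and Akr1c18, beside 11.5%. In PRP against NC, Hsd11b1 was higher (7.78% of all genes) and Akr1c18 lower (1.46%). In MNs against NC, Hsd3b6, Hsd11b1 and Fkbp5 were higher (15.7%) and none was lower (7.12%). The median over the 7 genes was 0.50, 0.02 and 0.84 in these comparisons, beside 0.14, 0.04 and 0.16 over all genes. The 3 comparisons share the NC library.

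The combined treatment was then set against each single one. In PRP-MNs against PRP, Srd5a1 was the only one of 6 genes at least 2-fold lower (7.5% of all genes) and none was higher (9.54%). In PRP-MNs against MNs, Srd5a1 and Hsd3b6 were lower of 7 (7.39%) and none was higher (7.16%). The medians were 0.48 and −0.38, beside 0.08 and −0.02 over all genes. Akr1c18 differed by −0.76 and −0.85 in these comparisons, the second reaching −1.03 with a pseudocount of 0.1. Fkbp5 differed by 0.84 and 0.21.

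**Figure D3:**
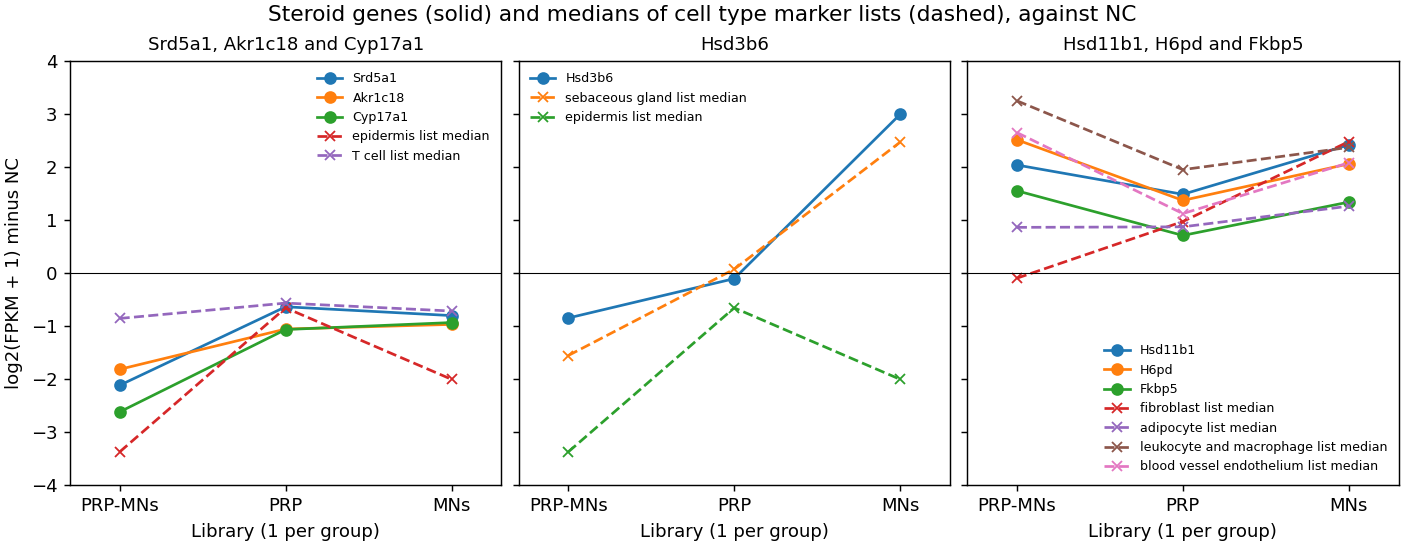
Difference in log2(FPKM + 1) from NC in the 3 treated libraries, with solid lines for single steroid genes and dashed lines for the median of a cell type marker list. Lines only join values of 1 gene or list. Hsd3b6 and the sebaceous gland median are both high in MNs (3.0 and 2.47) and below 0 in PRP-MNs.

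Other genes of androgen conversion were read from a list of 27, of which 15 were tested between PRP-MNs and NC. Of these, 1 was at least 2-fold higher and 4 lower, Srd5a1 and Akr1c18 included, beside 17.6% and 11.5% of all genes. The median was −0.47, but −0.00 without the filter on low values and −0.22 with a filter at 5 FPKM. Hsd17b14, which oxidises steroids at position C17, was at 6.40 FPKM in NC, 4.31 in PRP, 1.21 in MNs and 0.507 in PRP-MNs. Hsd17b11, a lipid droplet member of the same family, was the higher one, at 5.54 FPKM in NC, 11.0 in PRP, 17.8 in MNs and 16.9 in PRP-MNs. In MNs 4 of 16 were higher and 2 lower (median 0.46), beside 15.7% and 7.12% of all genes. In PRP none of 15 was higher and 1 was lower (−0.22), beside 7.78% and 1.46%. In PRP-MNs against MNs 1 of 15 was higher and 6 were lower (−0.74), beside 7.16% and 7.39%. Aromatase (Cyp19a1) and Hsd17b3, the testosterone-forming enzyme of the testis, were listed at 0 in all libraries.

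Of 17 genes of steroid synthesis from cholesterol, 10 were tested between PRP-MNs and NC, with 3 higher and 1 lower, beside 17.6% and 11.5% of all genes. The median was 0.29, 0.00 without the filter and 0.99 with a filter at 5 FPKM. The lower gene was Cyp17a1. The higher ones were Por, the reductase that feeds electrons to microsomal P450 enzymes (23.4 FPKM in NC, 32.3 in PRP, 85.2 in MNs and 85.7 in PRP-MNs), and Stard3 and Tspo, which are linked to cholesterol transport. Stard3 was at 8.92 FPKM in NC, 12.4 in PRP and in MNs, and 29.4 in PRP-MNs. Tspo, also abundant in macrophages, was at 87.2 FPKM in NC, 138 in PRP and in MNs, and 212 in PRP-MNs. In MNs 3 of 10 genes were higher and none lower (0.62), beside 15.7% and 7.12% of all genes. In PRP none of 9 was higher and 1 was lower (0.29), beside 7.78% and 1.46%. Cyp21a1, Hsd3b2 and Cyp11b2 were listed at 0 in all libraries.

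Among 13 genes of sulfate transfer, transport and glucuronidation, 9 were tested in PRP-MNs against NC, with 2 higher and 3 lower, beside 17.6% and 11.5% of all genes. The median was −0.73, −0.23 without the filter and −0.45 with a filter at 5 FPKM. The glucuronosyltransferase Ugt1a6a was at 1.87 FPKM in NC, 6.59 in PRP, 12.2 in MNs and 0.0536 in PRP-MNs. Ugt1a7c, which is made from the same locus and shares its downstream exons, had another order, with 3.91 FPKM in NC, 7.02 in PRP, 7.08 in MNs and 15.2 in PRP-MNs. These values are uncertain, because how fragments of the shared exons were divided is not stated. Sult1a1, a phenol sulfotransferase, was at 1.99 FPKM in PRP-MNs and between 7.99 and 8.96 FPKM in the other libraries. Papss2, which makes the sulfate donor, was at 2.71 FPKM in NC, 4.94 in PRP, 7.67 in MNs and 8.46 in PRP-MNs. In MNs 4 of 9 were higher (0.72) and in PRP 1 of 9 (0.34), beside 15.7% and 7.78% of all genes. None was lower in either, beside 7.12% and 1.46%.

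**Figure D4:**
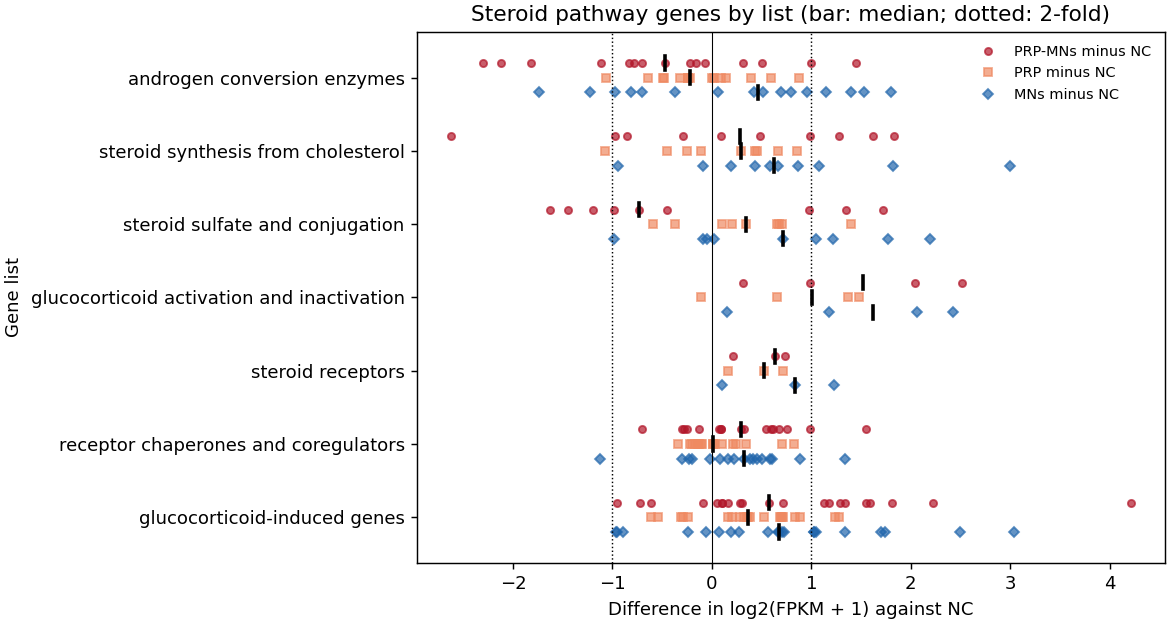
Difference in log2(FPKM + 1) from NC of each tested gene in 7 steroid pathway lists, 1 point per gene and treated library, with a black bar at the median and dotted lines at 2-fold. In the glucocorticoid-induced list 9 points of PRP-MNs and 8 of MNs lie beyond the upper line and none beyond the lower one.

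Of 5 steroid receptor genes listed, 3 were measured: Nr3c1, the mineralocorticoid receptor Nr3c2 and the oestrogen receptor Esr1. Esr1 was at 2.34 FPKM in NC, 4.49 in PRP, 6.82 in MNs and 4.57 in PRP-MNs, at least 2-fold higher in MNs alone (1.23). Nr3c2 stayed between 0.927 and 1.77 FPKM, and Esr2 and Pgr below 0.1 FPKM. The 17 chaperones and coregulators of these receptors varied less. Fkbp5 was the only one at least 2-fold higher in PRP-MNs or MNs against NC, beside 17.6% and 15.7% of all genes. In MNs the co-chaperone Bag1 was lower, at 101 against 221 FPKM in NC. Hsp90aa1, the inducible Hsp90 that holds the receptor ready for hormone, was at 63.2 FPKM in NC, 57.5 in PRP, 95.0 in MNs and 126 in PRP-MNs. Fkbp4, whose product competes with that of Fkbp5 on the receptor, was at 54.0, 47.0, 76.6 and 45.3 FPKM in the same order.

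Genes known to be induced by glucocorticoids, 23 in all with Fkbp5 among them, gave 21 tested in each comparison with NC. In PRP-MNs 9 were at least 2-fold higher and none lower (median 0.57), in MNs 8 and none (0.68), and in PRP 2 and none (0.36), beside 17.6%, 15.7% and 7.78% of all genes higher. The count in PRP is near its background, and the median in PRP-MNs was 0.30 without the filter and 0.93 with a filter at 5 FPKM. The medians over all genes were 0.14, 0.16 and 0.04. Angptl4, an inhibitor of lipoprotein lipase that low oxygen and fatty acids also induce, was at 2.58 FPKM in NC, 4.83 in PRP, 28.4 in MNs and 65.1 in PRP-MNs. Glutamine synthetase (Glul) was at 31.8, 78.9, 106 and 152 FPKM, and the phagocyte receptor Mertk at 1.06, 2.83, 5.88 and 6.23 FPKM, in the same order. The phosphatase Dusp1, also an immediate early gene, was high in PRP-MNs alone, at 118 FPKM against 38.4 to 46.6 FPKM elsewhere. The list was not uniform: the clock gene Per1 was at 15.6 FPKM in NC but 9.08 in PRP-MNs, and annexin A1 (Anxa1) at 757 and 391 FPKM. In PRP-MNs against NC, Sgk1 differed by 0.05, Klf9 by 0.10, Zbtb16 by 0.10 and Klf15 by −0.61, but Tsc22d3 by 1.13. Of these, Sgk1 was at least 2-fold higher in MNs (1.03). Leukocyte markers, of cells that express several of these genes, were higher in the same libraries as given above, and their part in these counts was not tested.

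For each gene that reached 5 FPKM, the 3 genes with the most similar course over the 4 libraries were found among 10157 genes by the Euclidean distance of mean-centred log2(FPKM + 1). The number of genes within a distance of 0.5 is also given. The values were not scaled to equal size, so this number depends on how much a gene varied. It does not measure how particular the shape of a course is. For Hsd3b6, 8 genes lay that close. The nearest were Pctp, a phosphatidylcholine transfer gene (0.210), Tmem45b (0.223) and the xenobiotic-metabolising P450 gene Cyp1a1 (0.233). For Hsd11b1 there were 69, led by Igfbp7, the protease gene Adamts5 and Dse, at 0.150 to 0.182. Srd5a1 had 176, led by Tnk1, the glutathione transferase gene Mgst2 and the prostaglandin reductase gene Ptgr1, at 0.066 to 0.096. Akr1c18 had 194, led by Rpl36a, Slc6a9 and Fam83f, at 0.146 to 0.191. Fkbp5 had 564, led by Ctbp2, Praf2 and the endoplasmic reticulum chaperone gene Calr, at 0.036 to 0.043. Nr3c1 had 1899, with Hspd1, Pgm3 and Snrnp200 nearest, and Srd5a3 had 3052, with Hps1, Prrc2a and Zfp146 nearest. Over only 4 libraries, likeness of course is a description and no measure of a link.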

How the data were processed

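Skin RNA of 4 groups was sequenced with 1 library each. Library preparation used a NEBNext Ultra kit and 1 μg of RNA, per the labels' protocols. FPKM values, computed by the authors, were deposited as 1 table with a column per library. The submitters' processing notes name the build GRCm38. The aligner, quantification tool, annotation and strand setting are not given in the sources used here. Coordinates come from GENCODE release M21 (GRCm38) and promoter sequences from RefSeq, read for 7 of the 9 genes.

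Differences are log2 ratios of FPKM + 1 over all genes with at least 1 FPKM in 1 of the 2 libraries. A difference of 2-fold on that scale was counted, without p-values. Depth came from the step between low values of genes with 1 transcript. Between 21.1% and 25.0% of them were whole multiples of the step to within 0.02, so no count test was run. The genes, lists and comparisons were chosen with earlier results of these data known. Named are the 9 genes, their Hsd3b and Akr1c relatives and, from each list, up to 4 genes with the largest difference in PRP-MNs against NC. Genes named beyond that were chosen after their values were seen. They are Hsd11b2, Hsd17b3, Cyp19a1, Fkbp4, Esr2, Pgr and other genes at 0, and the markers Cd4, Lck, Thy1, Krt5, Krt14, Trp63 and Col17a1. The sebaceous gland markers Soat1, Pparg, Fads2, Acsbg1 and Dgat2 are also among them. From the glucocorticoid-induced list they are Per1, Anxa1, Sgk1, Klf9, Klf15, Zbtb16 and Tsc22d3. Alternatives were a pseudocount of 0.1, no filter, a filter at 5 FPKM, 2 rescalings and centring on the median of all genes. The calculation was run on simulated data with planted changes beyond the 2-fold line. That checks the arithmetic, not differences near that line or the spread between animals. Python 3.11.15, pandas 2.3.3 and numpy 2.4.6 were used.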

Additional observations from a re-analysis of the deposited data

Results flagged for a closer look

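If NC is skin without either treatment, which the labels do not state, the 4 groups form a layout with and without each treatment. The listed genes were read where each pair of libraries compared had at least 1 FPKM in 1 of them. Under that filter, 1 gene differed in opposite directions for the same treatment depending on the other, by differences at least 2-fold apart. For Hsd11b1, PRP went with a difference of 1.48 in log2(FPKM + 1) in skin without microneedles (PRP minus NC) and of −0.38 in skin with them (PRP-MNs minus MNs). With 1 library per group the contrast between them was not tested, and the second is under 2-fold.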

How the results depend on the processing

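No called difference of the listed genes changed sign under the 6 alternatives run. Of 202 recomputed differences of single genes, 196 kept their side of the 2-fold line and 6 did not. The number of listed genes lower in PRP against NC was 0 in place of 1 after scaling without mitochondrial genes, through Akr1c18, and in MNs against NC it was 1 in place of 0 with a pseudocount of 0.1 and after centring, through the same gene. Over all genes in PRP against NC, the counts of 1053 (higher) and 197 (lower) became 1644 and 432 with a pseudocount of 0.1, and a filter at 5 FPKM left 130 of the lower genes. In MNs against NC higher genes were 68.8% of those called, and 57.8% after centring. With equal library sums the median over all genes against NC was 0.29 in place of 0.14 for PRP-MNs and 0.34 in place of 0.16 for MNs. Of 210 recomputed list medians, 203 kept their side of the 2-fold line and 7 did not. Most of the 7 belong to the glucocorticoid activation and inactivation list. Its medians against NC were 1.51 in PRP-MNs, 1.01 in PRP and 1.62 in MNs, but 0.65, 0.33 and 0.66 without the filter. In PRP its median was also 0.97 after centring. The steroid receptor median in MNs against NC was 0.84, but 1.04 with a filter at 5 FPKM and 1.03 with equal library sums. In PRP-MNs against NC the medians of androgen conversion, steroid synthesis, sulfate and conjugation, and glucocorticoid-induced genes were −0.00, 0.00, −0.23 and 0.30 without the filter, where genes at 0 in both libraries enter as 0, and −0.22, 0.99, −0.45 and 0.93 with a filter at 5 FPKM. In MNs against NC the first 3 fell to 0.01, 0.19 and 0.01 without the filter. In PRP-MNs against MNs the androgen conversion median was −1.11 with a pseudocount of 0.1. No paired analysis was possible because each group has 1 library. Levels near 3 fragments, such as Hsd3b6 in PRP-MNs, are limited by depth, and differences between animals were not measured.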
